A study of Rattus norvegicus with 10 samples.

Results

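Neurexins, neuroligins and LRRTMs are adhesion proteins that bind each other across the synaptic cleft. The 9 genes described here are Nrxn2, Nrxn3, Nlgn1, Nlgn2, Nlgn3, Lrrtm1, Lrrtm2, Lrrtm3 and Lrrtm4, taken as a family by gene symbol, with earlier results of these data known. Of these 9 symbols, 8 had rows of their own in the expression table, 10 rows in all out of 25269 loci. Nlgn2 had no row of its own and was read from a locus that also names Spem1. A second shared locus names Nlgn3 beside Med12. All 12 of these loci passed the filter on low values, a mean of at least 0.5 FPKM (fragments per kilobase, relative to all fragments mapped in that library), which left 16889 loci to test.

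Hippocampal messenger RNA of male Sprague Dawley rats was sequenced after poly-A selection, 1 week after surgery. A group of 5 libraries came from rats with a traumatic brain injury (TBI) by fluid percussion, a pressure pulse of fluid on the exposed dura. The other 5 libraries came from rats with sham surgery. Both groups took a learning test before the tissue was collected, and no source used here ties a library to a single animal. Every p-value is therefore set by how much these libraries vary, which may be technical in part.

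Neurexins sit mainly on the presynaptic membrane, and neuroligins and LRRTMs are their partners on the postsynaptic side. Neuroligin 1 is known from excitatory synapses, neuroligin 2 from inhibitory synapses, and neuroligin 3 from both and from glia. LRRTMs are leucine-rich repeat proteins of excitatory synapses. Lrrtm4 is well known from the dentate gyrus, where its protein binds heparan sulfate chains. In bulk tissue, fewer cells of a type and less RNA per cell cannot be told apart.

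The libraries had summed FPKM of 523239 to 629660. All 8 excitatory neuron markers, among them Prox1 of dentate granule cells and Wfs1 of CA1 pyramidal cells, passed the filter. Sham 1 and TBI 1 stood apart from the other 8 libraries in the way low values were built. In pairs of libraries without them, 24.6% to 41.1% of loci under 0.1 FPKM shared the commonest ratio, as values made of whole fragments would. In the 17 pairs with sham 1 or TBI 1 this share was 3.17% to 9.91%. TBI 1 also had the lowest summed excitatory neuron markers, 2060 FPKM against 3342 to 4791 in sham and 3258 to 4415 in the other injured libraries. Its inhibitory neuron, astrocyte and oligodendrocyte marker sums were also the lowest of the 10 libraries. Its choroid plexus sum of 32861 FPKM and its meninges and matrix sum of 565 FPKM were the highest, though sham 2 was close on the first, at 31805 FPKM. Of the meningeal markers, Col1a2 was listed at 0 in every library.

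Promoter sequences were taken from RefSeq on the GRCr8 build, where 7 of the 9 genes matched, all but Nrxn2 and Nrxn3. The 250 bases before the annotated start are shown for 3 genes: Nlgn2, the neuroligin with the highest reading, Lrrtm1, the LRRTM with the highest level, and Lrrtm2, whose signal was divided between loci. They lie at chr10:55056579-55056828 on the minus strand (Nlgn2), chr4:111259609-111259858 on the plus strand (Lrrtm1) and chr18:27096968-27097217 on the minus strand (Lrrtm2). Capitals mark matches, on either strand, to the GC box GGGCGG, the TATA box TATAAA or the full cyclic AMP response element TGACGTCA.
Nlgn2: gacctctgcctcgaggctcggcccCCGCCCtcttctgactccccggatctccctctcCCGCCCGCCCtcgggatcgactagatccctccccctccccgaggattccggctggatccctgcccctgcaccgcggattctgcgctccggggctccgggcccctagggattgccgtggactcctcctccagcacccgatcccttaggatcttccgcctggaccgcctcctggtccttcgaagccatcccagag
Lrrtm1: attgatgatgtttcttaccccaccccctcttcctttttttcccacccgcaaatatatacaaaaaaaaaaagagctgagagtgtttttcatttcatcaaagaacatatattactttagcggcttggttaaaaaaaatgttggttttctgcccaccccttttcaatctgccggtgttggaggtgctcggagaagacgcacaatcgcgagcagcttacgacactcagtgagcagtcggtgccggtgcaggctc
Lrrtm2: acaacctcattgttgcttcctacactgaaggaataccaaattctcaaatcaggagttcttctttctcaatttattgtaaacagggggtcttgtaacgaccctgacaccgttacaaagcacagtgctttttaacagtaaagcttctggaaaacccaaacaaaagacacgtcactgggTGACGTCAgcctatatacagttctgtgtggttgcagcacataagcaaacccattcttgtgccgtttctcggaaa

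The Nlgn2 window held 3 GC boxes, of which a pair overlaps, and a GC content of 69.2%. A GC box stood in 30.5% of all 33469 promoter windows of the same length, whose median GC content was 51.2%. The Lrrtm2 window held 1 full cyclic AMP response element, a motif present in 1.59% of all windows, and had a GC content of 42.4%. The Lrrtm1 window held none of the 3 motifs, nor did those of Nlgn1, Nlgn3, Lrrtm3 and Lrrtm4. TATAAA was in none of the 7 windows and in 12.9% of all windows. The 4 LRRTM windows had GC contents of 42.4% to 47.6%, below the median of all windows. Nlgn1 was also below that median, at 44.4%, and Nlgn3 was above it, at 60%. These matches describe letters only.

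Levels of the 9 genes spanned about an order of magnitude on the FPKM scale, which is per length and so allows genes to be set side by side. Nrxn2, a presynaptic neurexin, was highest, with a mean of 74.2 ± 13 FPKM over all 10 libraries (SD). The locus shared by Nlgn2 and Spem1, a gene known from sperm maturation, followed at 57.2 ± 7.25 FPKM. Lrrtm1 was next at 31.5 ± 5.94 FPKM. Each of these 3 was above the next gene in the order in 10 of 10 libraries, and the range of Lrrtm1 did not meet that of the gene below it.

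A middle set lay close together. Lrrtm2, summed over its 2 loci, was at 14.7 ± 2.57 FPKM, Nlgn1 at 12.9 ± 2.15, Nrxn3 at 12.6 ± 1.86 and Lrrtm4 at 12.4 ± 2.44. Nlgn1 exceeded Nrxn3 in 6 of 10 libraries, and Nrxn3 exceeded Lrrtm4 in 6 of 10, so these neighbours did not differ beyond their spread. Lrrtm3, summed over 2 loci, was at 8.74 ± 1.32 FPKM, below Lrrtm4 in 10 of 10 libraries. Alone, the Lrrtm2 loci were at 7.4 and 7.28 FPKM and the larger Lrrtm3 locus at 7.46. The places of Lrrtm2 and Lrrtm3 in the order therefore rest on their sums. The Nlgn3 locus of its own was at 7.71 ± 3.97 FPKM, and its place at the end depends on leaving out the locus shared with Med12, a subunit of the Mediator complex.

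**Figure D1:**
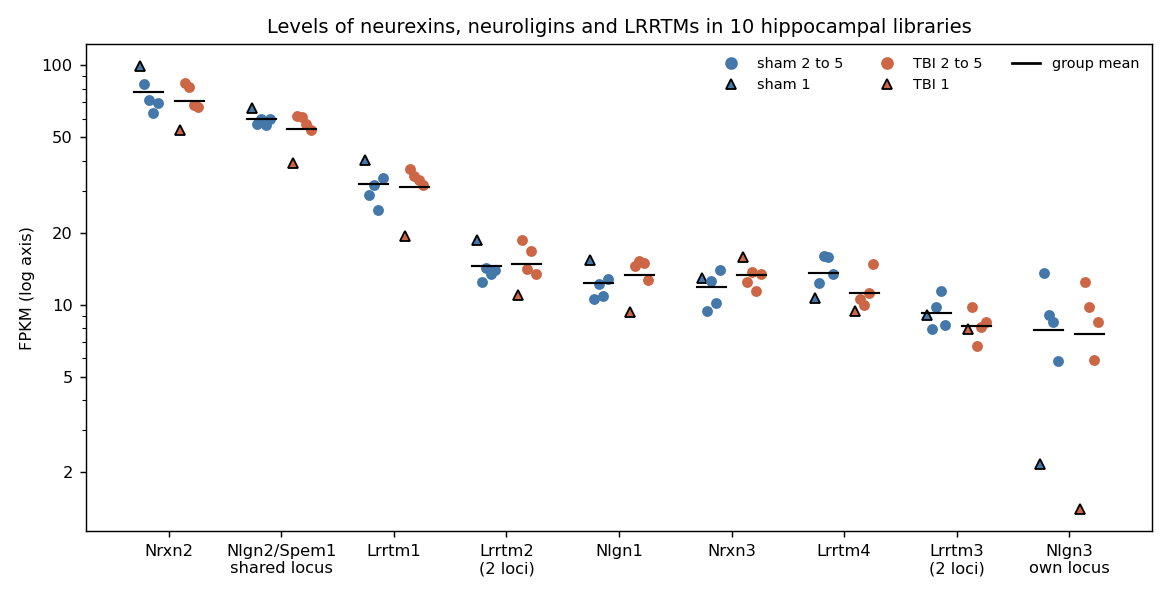
FPKM (log axis) of each gene in the 10 libraries, sham in blue and TBI in orange, with a bar at each group mean and triangles for sham 1 and TBI 1. Nrxn2, the Nlgn2/Spem1 locus and Lrrtm1 lie above the rest, and the groups overlap for every gene.

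Injured and sham hippocampus were compared to ask what differs 1 week after the injury. None of the neurexin, neuroligin or LRRTM loci passed the test, and the values are given gene by gene, beginning with the neurexins. Nrxn2 was at 99.3, 83.4, 71.8, 63.1 and 69.5 FPKM in sham 1 to 5, and at 53.8, 84.2, 81.5, 68.5 and 67.1 in TBI 1 to 5. Sham 1 was the highest library and TBI 1 the lowest, and the other 8 libraries mixed. The group means were 77.4 ± 14.3 and 71.0 ± 12.2 FPKM (SD, n = 5 each). The log2 difference was -0.12 (SE 0.15, 95% interval -0.45 to 0.21), with an adjusted p of 0.988 in limma's test over all loci. Without both libraries numbered 1 it was 0.07.

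Nrxn3 was at 13, 9.44, 12.6, 10.2 and 14.0 FPKM in sham and at 15.8, 12.4, 13.7, 11.4 and 13.4 FPKM after TBI. Here TBI 1 was the highest library, the opposite of its place for Nrxn2. The group means were 11.8 ± 1.94 and 13.4 ± 1.62 FPKM (SD, n = 5 each), a log2 difference of 0.18 (SE 0.12, 95% interval -0.10 to 0.45, limma's adjusted p = 0.988). Of the 5 injured libraries 4 lay above the sham mean. As a share of Nrxn2 and Nrxn3 together, Nrxn3 made up 22.7% in TBI 1 and 10.2% to 16.8% in the other 9 libraries. A share within a library does not depend on the scaling between libraries.

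Among the neuroligins, Nlgn1 was at 15.4, 10.6, 12.2, 10.9 and 12.8 FPKM in sham and at 9.34, 14.5, 15.2, 15 and 12.7 FPKM after TBI. TBI 1 was the lowest of all libraries, while the other injured libraries reached from the middle of the sham range to its upper end. Group means were 12.4 ± 1.92 and 13.4 ± 2.46 FPKM (SD, n = 5 each). The log2 difference was 0.10 (SE 0.15, 95% interval -0.23 to 0.43, limma's adjusted p = 0.988). Without TBI 1 it was 0.22, and without both libraries numbered 1 it was 0.30, with adjusted p values of 1 and 0.924 by limma.

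The Nlgn2/Spem1 locus varied little in sham, at 66.3, 56.8, 60.0, 56.6 and 59.6 FPKM. After TBI it was at 39.0, 61.7, 61.0, 56.8 and 53.9 FPKM, with TBI 1 below all other libraries. Group means were 59.8 ± 3.96 and 54.5 ± 9.22 FPKM (SD, n = 5 each), a log2 difference of -0.15 (SE 0.12, 95% interval -0.42 to 0.12, limma's adjusted p = 0.988). In the RefSeq table of GRCr8, Spem1 and Nlgn2 are neighbours on the same strand with no gene between them. How much of the reading belongs to Spem1 was not tested.

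The Nlgn3 locus of its own was at 2.16, 13.6, 9.09, 8.48 and 5.81 FPKM in sham and at 1.40, 12.4, 9.76, 5.89 and 8.49 FPKM after TBI. Sham 1 and TBI 1 were both below the other 8 libraries, so each group held 1 such low value. These 2 libraries were the lowest pair at 6.02% of all tested loci. The log2 difference of -0.10 had an SE of 0.56 and a 95% interval of -1.33 to 1.13 (limma's adjusted p = 0.998).

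The locus shared by Med12 and Nlgn3 was at 38.0, 25.3, 34.6, 31.8 and 36.6 FPKM in sham and at 25.6, 32.7, 36.3, 33.8 and 29.6 FPKM after TBI. Its log2 difference was -0.07 (SE 0.13, limma's adjusted p = 0.988). Added together, the Nlgn3 locus and the shared locus gave 41.1 ± 1.91 FPKM in the sham group and 39.2 ± 7.6 in the injured group (SD, n = 5 each). The sum in sham lay between 38.9 and 43.6 FPKM, a much narrower range than either part had. In the injured group it lay between 27.1 and 46 FPKM, a wider range than either part had. Among the injured libraries both parts were lowest in TBI 1. Nlgn3 and Med12 are neighbours on the same strand in RefSeq, so reads of both can enter the shared locus.

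As a share of the 3 neuroligin readings without the Med12 locus, Nlgn2/Spem1 made up 69.6% to 79.1% and Nlgn1 13.1% to 19.3% over the 10 libraries. The Nlgn1 share was 15.4% ± 2.02 in the sham group and 17.8% ± 1.24 in the injured group (SD, n = 5 each). Sham shares of 13.1% to 18.3% and TBI shares of 16.4% to 19.3% overlapped. The Nlgn3 share was 2.57% in sham 1 and 2.81% in TBI 1, and 7.43% to 16.8% in the others.

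**Figure D2:**
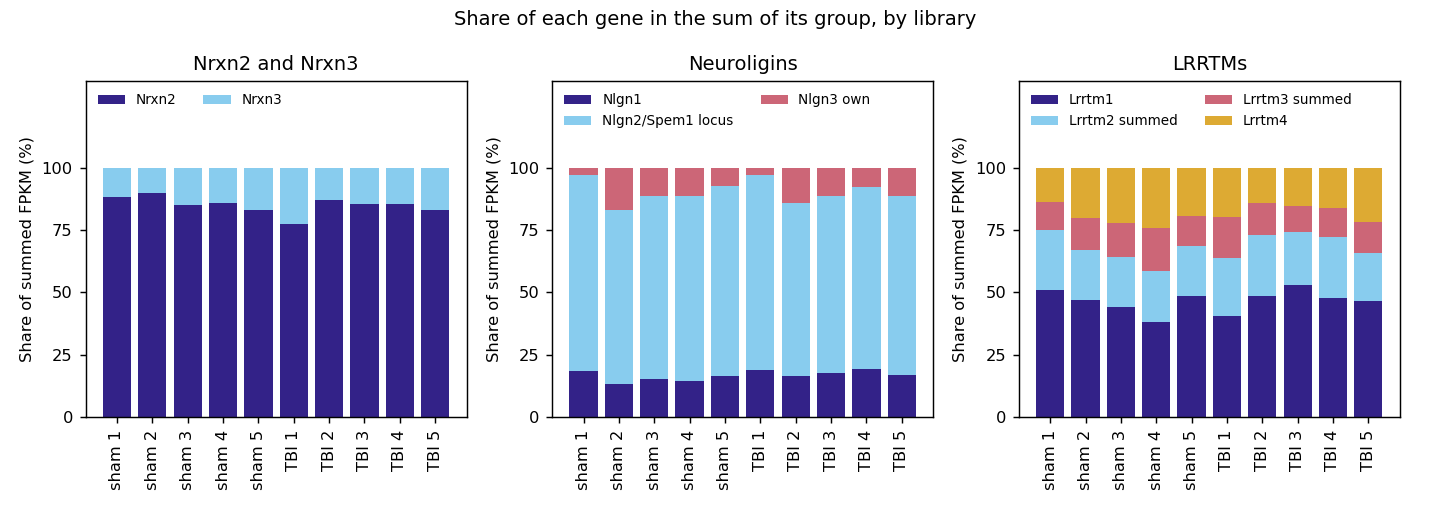
Share of summed FPKM in percent, by library, for Nrxn2 and Nrxn3, for the neuroligins (without the Med12/Nlgn3 locus) and for the LRRTMs. Nrxn3 takes its largest share in TBI 1 (22.7%), and the Nlgn3 locus its smallest shares in sham 1 and TBI 1.

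Lrrtm1, the most abundant LRRTM, was at 40.2, 28.8, 31.8, 24.9 and 33.8 FPKM in sham and at 19.4, 36.8, 34.5, 33.3 and 31.7 FPKM after TBI. TBI 1 was lowest and sham 1 highest, as for Nrxn2. Group means were 31.9 ± 5.71 and 31.1 ± 6.81 FPKM (SD, n = 5 each). The log2 difference of -0.05 (SE 0.18, 95% interval -0.44 to 0.35, limma's adjusted p = 0.992) turned to 0.11 without TBI 1 and to 0.20 without both libraries numbered 1.

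Lrrtm2 stood on 2 loci whose values went opposite ways in sham 1 and TBI 1. XLOC_010625 was at 2.19, 8.72, 7.56, 7.71 and 8.19 FPKM in sham and at 0.457, 12.4, 8.5, 9.83 and 8.37 FPKM after TBI. XLOC_010880 was at 16.5, 3.68, 6.73, 5.71 and 5.77 FPKM in sham and at 10.6, 6.26, 5.55, 6.99 and 5.02 FPKM after TBI. Sham 1 and TBI 1 were the 2 lowest libraries at the first locus and the 2 highest at the second, an arrangement found at 6.02% and 4.65% of all tested loci. XLOC_010625 held 11.7% of the Lrrtm2 sum in sham 1 and 4.14% in TBI 1, against 52.9% to 70.3% in the other 8 libraries. Among the 681 genes of the table that stand on exactly 2 tested loci, 23.3% had both libraries numbered 1 outside the split of the other 8, on the same side.

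The summed Lrrtm2 level lay between 12.4 and 18.7 FPKM over the sham libraries and between 11 and 18.7 FPKM over the injured ones. Summing therefore brought the ratio of the highest to the lowest library from 27.2 at XLOC_010625 to 1.69. The group means of the sum were 14.6 ± 2.41 and 14.8 ± 3.0 FPKM (SD, n = 5 each), a log2 difference of 0.01 (SE 0.15, 95% interval -0.31 to 0.34). Its adjusted p was 0.999 in limma's test with all loci of a symbol summed. At XLOC_010625 the log2 difference was -0.10 (SE 0.67) and at XLOC_010880 it was -0.02 (SE 0.33), with limma's adjusted p of 0.999 at each. Without TBI 1 the first was 0.58, and without sham 1 the second was 0.29.

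Lrrtm2 lies inside Ctnna1, the gene of alpha-E-catenin, in the RefSeq table, and the values carry no strand information. Ctnna1 was at 93.2 FPKM in TBI 1 and at 29.1 to 37.2 FPKM in the other 9 libraries. Its log2 difference was 0.26 (SE 0.28, limma's adjusted p = 0.988). Lrrtm1 lies inside Ctnna2, on the opposite strand. Ctnna2 was at 59.1 ± 7.69 FPKM in the sham group and 51.0 ± 9.22 in the injured group (SD, n = 5 each, log2 difference -0.22, limma's adjusted p = 0.988), with TBI 1 lowest at 35.4. Lrrtm3 lies inside Ctnna3, which matched no locus. The part of these host genes in the LRRTM readings was not tested.

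**Figure D3:**
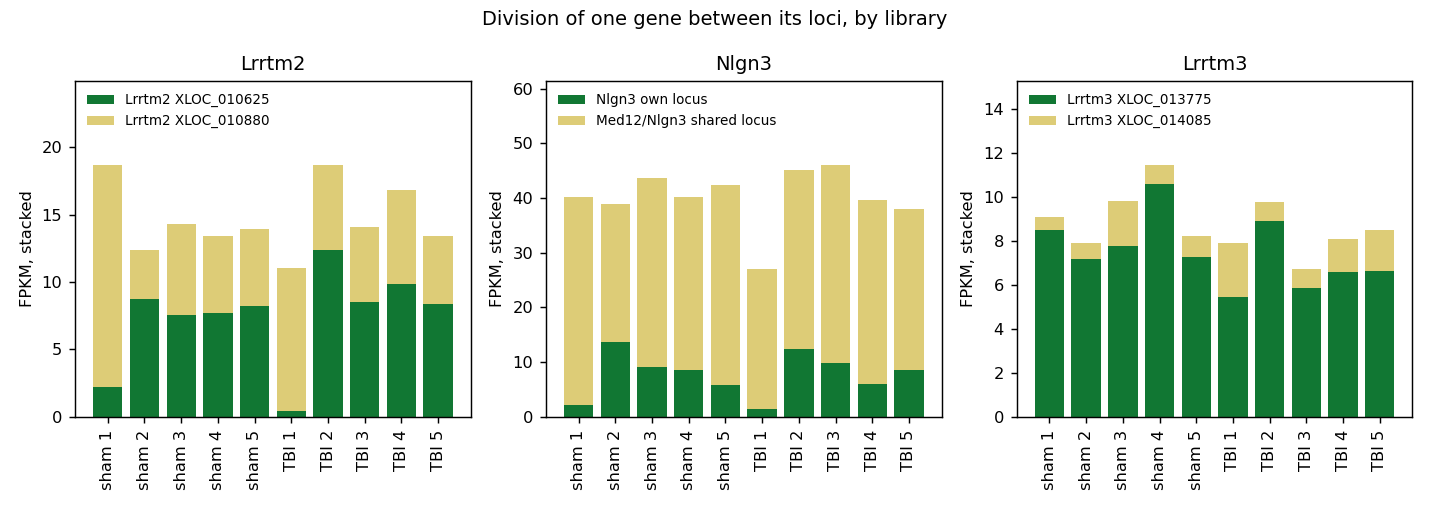
FPKM per library, stacked over the 2 loci of Lrrtm2, over the Nlgn3 locus and the Med12/Nlgn3 locus, and over the 2 loci of Lrrtm3. In sham 1 and TBI 1 the lower part of the Lrrtm2 bar is 2.19 and 0.457 FPKM and that of the Nlgn3 bar 2.16 and 1.40 FPKM, below all other libraries.

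Lrrtm3 had a main locus, XLOC_013775, at 8.51, 7.18, 7.75, 10.6 and 7.26 FPKM in sham and at 5.44, 8.92, 5.84, 6.57 and 6.61 FPKM after TBI. Of the 5 injured libraries 4 were below every sham library, and TBI 2, the exception, was above 4 sham libraries. Group means were 8.25 ± 1.40 and 6.68 ± 1.35 FPKM (SD, n = 5 each). The log2 difference of -0.29 (SE 0.14, 95% interval -0.61 to 0.03) had the smallest p among the 12 loci, 0.0684 unadjusted and 0.988 adjusted by limma. The exact two-sided permutation p over all 252 assignments was 0.0952, where the smallest possible is 0.00794.

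The minor Lrrtm3 locus, XLOC_014085, was at 0.574, 0.713, 2.05, 0.857 and 0.961 FPKM in sham and at 2.47, 0.834, 0.870, 1.53 and 1.88 FPKM after TBI. It leaned the other way, with a log2 difference of 0.40 (SE 0.29, limma's adjusted p = 0.988). The sum of both was 9.28 ± 1.41 FPKM in the sham group and 8.19 ± 1.10 in the injured group (SD, n = 5 each), a log2 difference of -0.17 (SE 0.12, 95% interval -0.44 to 0.10, adjusted p = 0.983 in limma's test on sums). The injured libraries were therefore lower at the main locus and higher at the minor locus by their means, with overlap at both.

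Lrrtm4 was at 10.7, 12.3, 16.0, 15.8 and 13.4 FPKM in sham and at 9.42, 10.6, 9.94, 11.2 and 14.8 FPKM after TBI. Of the 5 injured libraries TBI 5 lay above the sham mean and 4 lay below it. Group means were 13.6 ± 2.28 and 11.2 ± 2.12 FPKM (SD, n = 5 each). The log2 difference was -0.27 (SE 0.14, 95% interval -0.59 to 0.04), with p = 0.0825 unadjusted and 0.988 adjusted by limma and an exact permutation p of 0.111. In the LRRTM sum, Lrrtm4 made up 19.9% ± 3.98 in the sham group and 17.4% ± 3.20 in the injured group, while Lrrtm1 made up 45.8% ± 5.03 and 47.3% ± 4.44 (SD, n = 5 each). These shares overlapped between the groups.

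Counted over the 12 loci, 0 were called by limma with Benjamini-Hochberg adjustment, as were 0% of all 16889 loci, and the smallest adjusted p of the whole fit was 0.781. An unadjusted p under 0.05 was found at 0 of the 12 loci and at 2.82% of all loci. An exact permutation test of each locus also called 0 loci of the table after adjustment and 3.45% without it. Groups overlapped at each of the 12, and were apart at 0.462% of all loci. The log2 difference was below 0 at 9 of 12 loci, and at 49.6% of all loci. Without both sham 1 and TBI 1 it was below 0 only at the Nlgn3 locus (-0.0016), the main Lrrtm3 locus (-0.21) and Lrrtm4 (-0.30). The 95% interval lay within 1 log2 unit either way at 9 of 12 loci. The exceptions were the Nlgn3 locus, Lrrtm2 XLOC_010625 and the minor Lrrtm3 locus, where the interval reached past 1 unit and a change of that size was not excluded.

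**Figure D4:**
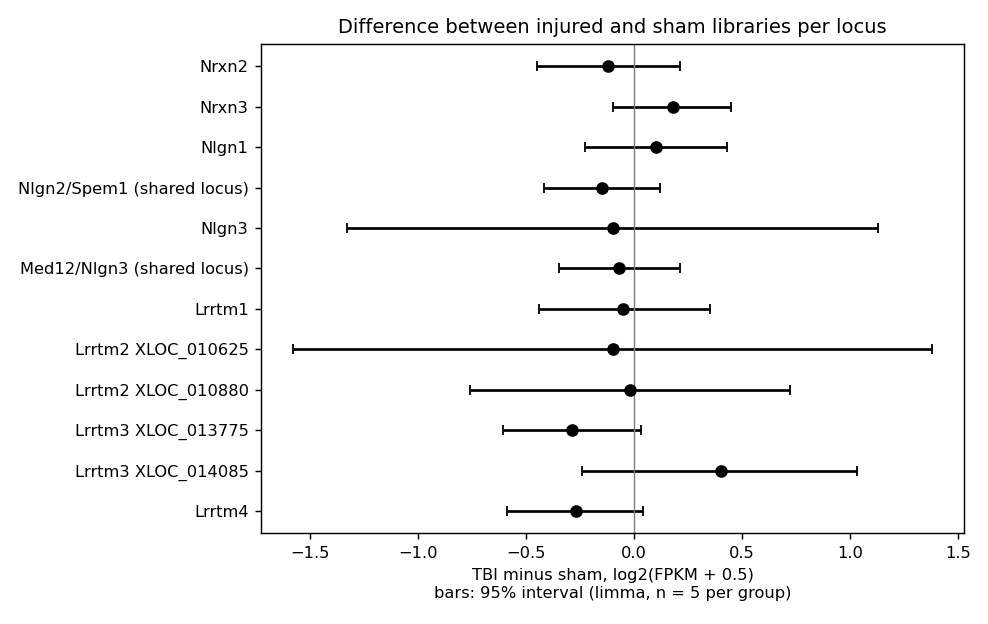
TBI minus sham on the log2(FPKM + 0.5) scale for the 12 loci, with limma's 95% intervals (n = 5 per group). Every interval includes 0, and the widest belong to the Nlgn3 locus and Lrrtm2 XLOC_010625.

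TBI 1 was the lowest of the 10 libraries at 8 of the 12 loci and the highest at 2, Nrxn3 and the minor Lrrtm3 locus. Over all tested loci it was the lowest at 28.1% and the highest at 22%. At the same 12 loci sham 1 was the highest library at 6. Its share over all tested loci was not counted, so this is not read as a trait of these genes. The part of the low neuron markers and high choroid plexus markers of TBI 1 in these values was not tested. Without both sham 1 and TBI 1 the log2 difference was 0.15 for Nrxn3, 0.0024 for the Nlgn2/Spem1 locus, -0.0016 for the Nlgn3 locus, -0.21 for the main Lrrtm3 locus and -0.30 for Lrrtm4. With a neuron marker score as covariate the log2 difference was -0.25 for the main Lrrtm3 locus and -0.23 for Lrrtm4. With a choroid plexus marker score as covariate it was -0.16 for the main Lrrtm3 locus and -0.30 for Lrrtm4.

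The partners of these proteins were followed in 4 lists. Of 18 other neurexin ligands and modulators, such as cerebellins, calsyntenins, neurexophilins and latrophilins, 0 passed after adjustment, 14 had a log2 difference below 0, and the median was -0.17 against 0.00 over all tested loci. TBI 1 was the lowest library at 10 of these 18, against 28.1% of all tested loci. Cbln1, a secreted protein that bridges neurexins to postsynaptic glutamate delta receptors, was at 3.36 ± 1.59 FPKM in the sham group and 1.80 ± 0.479 in the injured group (SD, n = 5 each). Each of the 5 injured libraries was under the mean of sham. The log2 difference was -0.67 (SE 0.28), with limma's p = 0.0355 unadjusted and 0.988 adjusted and an exact permutation p of 0.0794. Cbln4, of the same family, was at 3.92 ± 1.69 and 2.23 ± 0.781 FPKM (SD, n = 5 each), with a log2 difference of -0.65 (limma's adjusted p = 0.988). For both, groups overlapped: Cbln1 reached down to 1.54 FPKM in sham and Cbln4 to 1.97.

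Of 15 tested LAR-type receptor phosphatases and their ligands, a parallel set of synapse organizers, 12 had a difference below 0 and the median was -0.08. TBI 1 was the lowest library at 9 of these 15. Lrrc4, a postsynaptic netrin-G ligand, was at 27.8 ± 2.45 FPKM in the sham group and 25.2 ± 4.57 in the injured group, and Ntng1, netrin-G1, at 7.67 ± 1.30 and 6.65 ± 1.18 (SD, n = 5 each). Of 8 other synaptic adhesion genes 4 were below 0, with a median of -0.02, and TBI 1 was lowest at 5. Flrt1 was at 4.08 ± 0.537 and 3.36 ± 0.578 FPKM and Cadm4 at 145 ± 16.5 and 126 ± 25.4 (SD, n = 5 each). No gene of these 2 lists had an unadjusted p under 0.05.

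Of 12 intracellular partners, among them the scaffold Dlg4 and the inhibitory scaffold gephyrin (Gphn), 10 were below 0 and the median was -0.14. TBI 1 was the lowest library at 8 of these 12. Lin7a, a partner of the neurexin-binding scaffold Cask, was at 2.27 ± 0.393 FPKM in the sham group and 1.46 ± 0.653 in the injured group (SD, n = 5 each). Each of the 5 injured libraries was again under the mean of sham. The log2 difference was -0.56 (SE 0.22), with limma's p = 0.0315 unadjusted and 0.988 adjusted and an exact permutation p of 0.0635. Lin7b, read from a locus shared with Ppfia3, was at 82.6 ± 9.22 and 65.7 ± 17.6 FPKM (SD, n = 5 each), and was lowest in TBI 1 at 36.4. Over the 4 lists, 53 genes were tested and 0 passed after adjustment. An unadjusted p under 0.05 in limma's test was found at 2 of the 53, Cbln1 and Lin7a, and at 2.82% of all tested loci.

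**Figure D5:**
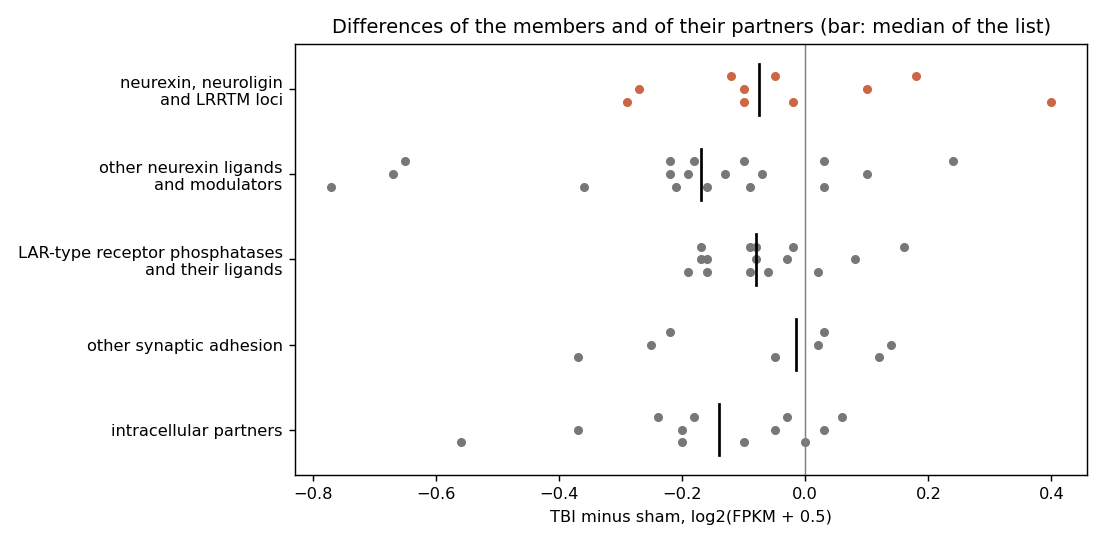
TBI minus sham on the log2(FPKM + 0.5) scale, 1 point per locus, for the 10 neurexin, neuroligin and LRRTM loci of their own and for the 4 lists of partners, with a bar at each median. The medians lie between -0.17 and -0.02, and no point passed limma's adjusted test.

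Genes whose library pattern was most like that of each group were sought among 11054 named loci of at least 1 FPKM, by the Pearson correlation with the mean centred log2 value of the group's own loci over the 10 libraries. They were picked as the highest of many, so no test is given. For Nrxn2 and Nrxn3 together these were Pkp2 (0.95), Rbck1 (0.90) and RGD1359108 (0.90). For the loci of Nlgn1 and Nlgn3 they were Apc XLOC_010870 (0.98), Slc4a8 (0.98) and Tmem132b (0.97). That Apc locus was at 0.353 FPKM in TBI 1 and at up to 24.4 FPKM elsewhere. The centred log2 mean of the Nlgn1 and Nlgn3 loci was -1.16 in TBI 1 and -0.57 in sham 1, against -0.07 to 0.53 in the other 8 libraries. In sham 1 these loci went opposite ways. Nlgn1 was highest there, at 15.4 FPKM, and Nlgn3 was at 2.16 FPKM, below every library but TBI 1. In TBI 1 Nrxn2 was lowest at 53.8 FPKM and Nrxn3 highest at 15.8 FPKM, and their centred mean was -0.06. A gene like the mean of a group is therefore not necessarily like each of its loci. For the LRRTM loci the genes most alike were Gripap1, Lrrn3 and Dcun1d2, each at 0.95. Each of these 3 was lowest in TBI 1, and without that library their correlations were 0.87, 0.84 and 0.86.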

How the data were processed

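Per the labels' protocols, poly-A RNA of 10 rat hippocampus libraries was sequenced. Values were deposited by the authors as FPKM with a status word, which was OK at all 12 loci used here. The submitters' processing notes name TopHat, TopHat2, Bowtie, Bowtie2, Cufflinks, Cuffdiff and the rn5 build. Which annotation was used is not given in the sources. FPKM divides by transcript length and library total, so values moved between overlapping loci, or by a very abundant transcript, shift the others. Read depth is unknown, since what 1 fragment is worth in FPKM also depends on an effective length that is not given, and no count test was run.

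Groups came from the sample titles. Differences were tested by limma 3.58.1 under R 4.3.3 (mean trend, two-sided) on log2(FPKM + 0.5) over the 16889 loci of mean FPKM of at least 0.5, with Benjamini-Hochberg adjustment at 0.05. Log2 differences on this scale understate the change of low genes. Rows were matched by symbol without regard to case. Partner and marker symbols also used RefSeq synonyms (GRCr8, names only), shared loci where no other existed, and the locus with the highest mean. The text names all members, the 2 partners per list with the smallest p, the catenin host genes and the 3 loci per group most alike. The procedure was tested on simulated data. Members and lists were chosen with earlier results of these data known. Alternatives covered the pseudocount, filter, scaling, variance model, library weights, covariates, the replicate number and left-out libraries.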

Additional observations from a re-analysis of the deposited data

Results flagged for a closer look

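Within the groups of 5, a library far from the other 4 was found in 3 of the 30 groups examined, and chance gives about 1 in 20. At Lrrtm2 XLOC_010625, sham 1 was at 2.19 FPKM while the other sham libraries were at 7.56 to 8.72. At the second Lrrtm2 locus, XLOC_010880, sham 1 was at 16.5 FPKM against 3.68 to 6.73 in the others. At the minor Lrrtm3 locus, XLOC_014085, sham 3 was at 2.05 FPKM against 0.574 to 0.961 in the other sham libraries. At the summed Lrrtm2 and Lrrtm3 levels no library was flagged. Sham 1 still had the highest Lrrtm2 sum in sham, at 18.7 FPKM against 12.4 to 14.3 in the others.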

How the results depend on the processing

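The count of loci past adjustment was 0 in the reported fit and in 23 of 24 alternatives. The exact rank-sum test among these has the same smallest possible p as the permutation test, so its 0 adds nothing. Leaving out each library in turn gave 0 to 1 loci, the 1 without sham 4 and not among those described here. None of the 12 loci passed adjustment in any alternative. Nrxn3, Nlgn1, the main Lrrtm3 locus and Lrrtm4 kept their direction in all 24. Several of these alternatives could not change it. The filters, the fit without mean trend, the replicate block and the rank-sum test leave the log2 difference as it is. So do sums for genes on a single locus. The other log2 differences changed sign in some. With array weights, Nrxn2 was 0.0036, Nlgn3 0.01, Lrrtm1 0.09, Lrrtm2 XLOC_010625 0.30 and Lrrtm3 XLOC_014085 -0.0049. Without both libraries numbered 1, Nrxn2 was 0.07, Nlgn2/Spem1 0.0024, Med12/Nlgn3 0.06, Lrrtm1 0.20, and Lrrtm2 0.25 at XLOC_010625 and 0.13 at XLOC_010880. With the neuron score, Nlgn3 was 0.18, Med12/Nlgn3 0.02, Lrrtm1 0.11 and Lrrtm2 XLOC_010625 0.42. With the choroid plexus score, Med12/Nlgn3 was 0.02, Lrrtm1 0.06, and Lrrtm2 0.06 and 0.12 at the same 2 loci. Summed per symbol, Lrrtm2 was 0.01 and Lrrtm3 -0.17. Leaving out 1 library gave -0.46 to 0.36 for Nlgn3, -0.16 to 0.004 for Med12/Nlgn3, -0.13 to 0.11 for Lrrtm1, -0.43 to 0.58 for Lrrtm2 XLOC_010625 and -0.22 to 0.29 for XLOC_010880. With no change of sign, it gave -0.19 (without sham 4) to -0.03 (without sham 1) for Nrxn2, 0.10 (sham 2) to 0.24 (sham 5) for Nrxn3, 0.05 (sham 2) to 0.22 (TBI 1) for Nlgn1, -0.20 (TBI 2) to -0.04 (TBI 1) for Nlgn2/Spem1 and 0.24 (TBI 1) to 0.60 (sham 3) for Lrrtm3 XLOC_014085. Apart from sums and left-out libraries, the cause of these changes was not tested. With the replicate number as a block 0 loci passed. Deviations from the group means over all tested loci showed no regular pairing by number. Same-numbered libraries correlated at 0.01, -0.31, 0.06, -0.07 and 0.32 for numbers 1 to 5, and TBI 1 correlated best with sham 2, at 0.32. Sham 1 and TBI 1 still both stood apart from the other libraries in low values and in some locus splits. These correlations do not measure that. The edgeR alternative was not run, since whole reads could not be recovered.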

Other observations

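Low values hold a trace of relative depth in the 8 libraries other than sham 1 and TBI 1. The commonest ratio between libraries put the value of 1 step in TBI 2 at 1.39 to 1.58 times that of the other 7, which differed among themselves by at most 1.13-fold. A larger step means fewer fragments behind the same FPKM. TBI 2 was the injured library at which the main Lrrtm3 locus lay above 4 of the 5 sham libraries, at 8.92 FPKM. Without TBI 2 the log2 difference of that locus was -0.39, but leaving out the library that goes the other way enlarges any difference. The part of depth in this value was not tested.

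The alpha-catenin gene Ctnna1, host of Lrrtm2, was at 93.2 FPKM in TBI 1, while Lrrtm2 XLOC_010625 was at 0.457 FPKM there. In sham 1, where that Lrrtm2 locus was also low at 2.19 FPKM, Ctnna1 was at 29.1 FPKM, the lowest of the sham libraries.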
